A study of Homo sapiens with 4 samples.

Results

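The genes described here encode the enzymes that hydroxylate collagen in the endoplasmic reticulum and the proteins that work with them: P4HA1, P4HA2, P4HB, PLOD1, PLOD2, PLOD3, P3H1, P3H4, CRTAP and COLGALT1. Membership follows the gene names alone and no measured value enters it, although the set was drawn up with earlier results of these data known. All 10 were present among the 15209 gene names of the data set. N6-methyladenosine (m6A), a methyl mark on adenosines of messenger RNA, was measured in HEK293T cells, a human embryonic kidney line, labelled WT in the 2 control libraries and labelled as treated with ascorbic acid in the other 2. The cells grew in high-glucose DMEM with serum. Treated cells were seeded for 24 h and then kept in ascorbic acid for 36 h with new medium every 6 h, per the labels' protocols, and no source used here gives the dose. The assay, GLORI, deaminates plain adenosines with glyoxal and nitrite, which makes them appear as G in the reads, and leaves m6A to appear as A. The level of a site is the share of A among its A plus G reads, in percent.

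Collagen chains are modified while they fold. Prolyl 4-hydroxylase turns prolines into 4-hydroxyproline, which stabilises the triple helix, lysyl hydroxylases prepare lysines for crosslinks and sugars, and the prolyl 3-hydroxylase complex modifies a few further prolines. The hydroxylases are dioxygenases that use Fe(II), oxygen and 2-oxoglutarate, and ascorbate keeps their iron reduced, which is why collagen fails in scurvy. The series asks what ascorbic acid does to the m6A of RNA, and these genes are the transcripts of the best known ascorbate-dependent enzymes and of their partners.

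A site appears in a library's list when it has at least 15 A plus G reads, at least 5 A reads and a level of at least 10%. In all, 151 of the 218950 listed sites lay in these genes, 97 and 112 in the control libraries and 104 and 94 in the treated ones. A site was tested if all 4 lists held it on 20 reads or more, which left 71 of 78509. Their median depth was 379 and 367 reads in control 1 and 2 and 387 and 440 reads in ascorbic acid 1 and 2, against medians between 97 and 118 reads over all tested sites. Because reads pass through several sites, 40 of the 71 have another tested site within 50 nt, and neighbouring sites are not independent. Nothing in the labels tells whether the replicates are separate cultures, so the p-values measure only the spread between these libraries. The vimentin gene, high in HEK293T cells, was listed in every library, as were KRT18, CDH2 and NEFM, while KRT8 was listed in 2 libraries. Of 6 fibroblast genes, COL1A1 and COL3A1 were each listed in 3 libraries and COL1A2, DCN, LUM and PDGFRB in none, but a gene without a listed m6A site is not shown to be absent. Positions are on GRCh38. Gene spans come from RefSeq, and whether a site is exonic or in a UTR was not determined here.

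Sequence could be read for listed sites near a gene start, because RefSeq promoter windows (GRCh38.p14) cover 250 bases before and 50 after the start of 9 of the 10 genes. A site of P3H1 is shown because it stands in the usual sequence context of m6A. At chr1:42767009-42767037 on the minus strand, the capitals mark the 5 bases around the listed A at position 42767023, which lies 5 nt downstream of the annotated start.
P3H1: tcgccgggggtaGGACTccggccttggtg
The site stands in the middle of GGACT, a form of the DRACH motif (A, G or T, then A or G, then AC, then A, C or T) that the m6A methyltransferase complex prefers. It was listed in ascorbic acid 2 alone, at 12.5% on 88 reads, just above the listing limit of 10%. Over all promoter windows, the base was A at 7814 of 7814 listed sites, 1581 of them (20.2%) were the annotated first base and 1341 (17.2%) stood in a DRACH motif on the transcript's strand. The motif itself is common: 99.8% of windows held it on at least 1 strand. The assay does not tell m6A from other modified adenosines that resist deamination, such as the doubly methylated adenosine at the start of many capped transcripts.

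m6A was lower with ascorbic acid in most of the 10 transcripts. Over each gene's tested sites together, 9 genes fell, none rose and P4HA1 did not pass (edgeR's quasi-likelihood test of the A reads against the G reads, Benjamini-Hochberg adjusted p of 0.05 over all genes, with 9 at an unadjusted p of 0.05 also). None of the 10 rose by DESeq2 or limma either. Across all genes 56.8% fell and 0.297% rose, and among genes with at least 3 tested sites 68.3% fell. The median change of the 10 genes was -0.64 in log2 odds of an A read, against -0.39 over all 10782 genes. In each of the 10 genes both treated libraries were lower than either control library, as in 76.7% of all genes, and the differences between group means ran from -4.26 to -15.0 percentage points. The unconverted share of adenosines, which adds to every level, was highest in control 2 for all 10 genes, at 3.17 to 6.22%, against 1.94 to 4.54% in the other libraries. With each gene's level corrected for it the differences ran from -4.09 to -15.2 points, and against control 1 alone from -4.25 to -16.0 points.

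**Figure D1:**
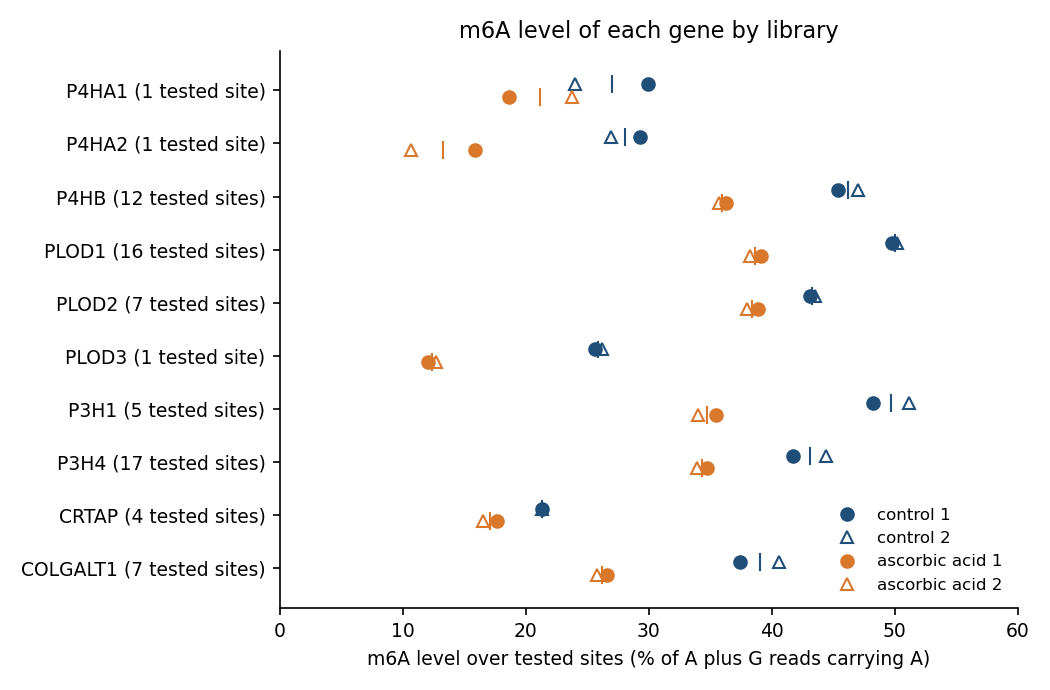
Percent of A plus G reads carrying A, added up over each gene's tested sites, for each of the 4 libraries, with a vertical tick at each group's mean (n = 2). Both ascorbic acid libraries lie left of both control libraries in all 10 genes, by little in P4HA1, where 23.7% stands beside 24.0%.

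By single sites, 36 of the 71 fell, none rose and 35 did not pass (edgeR, adjusted over all sites). The falls make up 50.7% of the sites, where 25.7% of all tested sites fell and 0.220% rose. No site of these genes rose by DESeq2, by limma or at an unadjusted p of 0.05 by any of the 3 tools, and 42 fell at an unadjusted p of 0.05 by edgeR. Depth differs between the sets, and at sites with at least 200 reads in every library 29 of 47 fell in these genes and 41.0% of all. At 67 of the 71 sites the treated mean was the lower one, as it was at 65074 of all 78509 tested sites. Both ascorbic acid libraries were below both controls at 49 sites and above both at 1, against 55.4% and 4.22% of all tested sites. The median over the sites was 32.2% and 33.1% in the control libraries and 24.2% and 24.1% in the treated ones, so that it fell by 8.52 points while replicates of a group lay less than 1 point apart. An exact two-sided permutation test gave p = 0.33, which is the smallest possible with 2 libraries against 2. The median of all tested sites moved by -7.04 points.

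In points, the sites with the highest control levels had the largest median change. Of the 21 sites at 60% or more in control, 17 fell, with a median change of -15.0 points, where 49.0% of all such sites fell, with a median of -9.53. With at least 200 reads in every library 14 of 14 such sites fell, with a median of -21.1 points, against 74.4% and -8.84 points over all. Between 25 and 60% in control, 15 of 24 fell, with a median of -9.33 points, where 19.8% of all such sites fell, with a median of -5.57. Under 25%, 4 of 26 fell, with a median of -3.27 points, where 6.78% of all such sites fell and the median was -1.61. Sites that drop under 10% leave the lists, so large falls from a low level cannot be seen. Within 1000 nt of the annotated 3' end of the gene 26 of 43 sites fell, and farther away 10 of 28. Over the tested sites of all genes matched in RefSeq, 29.3% fell within that distance and 26.7% farther away. The difference between near and far sites was not tested. The sites near the end also had the higher control levels, with a median of 38.5% against 24.2%.

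**Figure D2:**
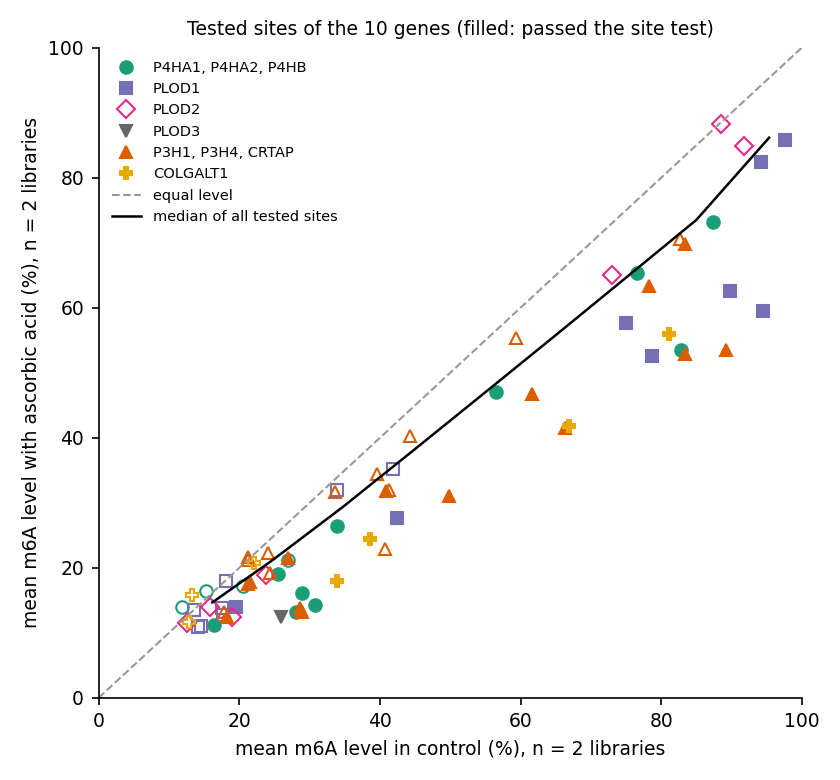
Mean m6A level of the 71 tested sites in control (horizontal axis) and with ascorbic acid (vertical axis), both in percent and n = 2, with filled symbols for the 36 sites that fell, a dashed line of equal level and a solid line for the median of all tested sites. Most filled symbols lie below the solid line, in part because they were chosen as sites that fell. The PLOD2 sites are open, and no site that passed lies above the dashed line.

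The catalytic subunits of prolyl 4-hydroxylase, P4HA1 and P4HA2, carried 1 tested site each. P4HA1 lies on chromosome 10 (73007217 to 73096866, minus strand), and its site at 73008076 had levels of 29.9% and 24.0% in the control libraries against 18.6% and 23.7% after treatment, on 175 to 253 reads. The groups almost touch, since control 2 and ascorbic acid 2 differ by less than 1 point. The change of the gene was -0.45 in log2 odds (SE 0.25, edgeR adjusted p = 0.123). P4HA1 did not pass by DESeq2 (adjusted p = 0.339), limma (0.166) or edgeR with a replicate block (0.105) either. The size of the change varied with the library left out, at -0.65 in log2 odds without control 2 and -0.21 without control 1. It was -0.26 without ascorbic acid 1 and -0.70 without ascorbic acid 2. P4HA1 did pass without control 2, a fit with control 1 alone in its group.

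P4HA2 lies on chromosome 5 (132190147 to 132227853, minus strand). Its site at 132192852, which lies 2705 nt before the 3' end, had 29.3% and 26.9% in control against 15.9% and 10.6% after treatment, on 123 to 164 reads. Both treated libraries were well below both controls, from a mean of 28.1% ± 1.68 to 13.2% ± 3.70 (SD, n = 2). The gene changed by -1.34 in log2 odds (SE 0.30, edgeR adjusted p = 0.00079), the largest change in log2 odds of the 10 genes, with PLOD3 at -1.31 beside it. Tested as a site it passed too (adjusted p = 0.000545), though not without ascorbic acid 2 (0.0505).

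P4HB encodes protein disulfide isomerase, which is the second subunit of prolyl 4-hydroxylase and keeps the catalytic subunits soluble. It lies on chromosome 17 (81843166 to 81860535, minus strand) and had the deepest sites, with 9 of 12 falling and 3 not passing. The site with the smallest p, at 81843640, had 4786 to 6669 reads in each library. Its levels were 30.2% and 31.5% in control against 14.1% and 14.3% after treatment, a change that is many times the spread between replicates (edgeR adjusted p = 1.85e-17). The largest fall was at 81844018, from 83.0% and 82.8% to 54.4% and 52.7%, on 163 to 264 reads (edgeR adjusted p = 2.84e-10).

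Neighbouring P4HB sites fell by different amounts. The sites at 81843549 and 81843554 lie within a few bases and share most of their reads, yet the first went from 56.1% and 56.8% to 46.4% and 47.7%, and the second from 86.9% and 87.9% to 74.1% and 72.4%. In log2 odds these are -0.55 and -1.34. The site at 81843755 went from 76.0% and 77.1% to 64.9% and 65.9%. Losses were not limited to the end of the gene, since the site at 81855266, which lies 12100 nt from the 3' end, went from 28.8% and 29.1% to 16.8% and 15.3% (edgeR adjusted p = 3.14e-11). The site with the largest rise in mean level, at 81846614, had 10.2% and 13.6% in control against 17.3% and 10.8% after treatment. Its groups overlap and it did not pass (edgeR adjusted p = 0.338), and it lies 6 nt from another listed site.

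Among the lysyl hydroxylases, PLOD1 acts mainly on the helical part of collagen, PLOD2 on the telopeptides at its ends, and PLOD3 also transfers glucose and galactose. PLOD1 lies on chromosome 1 (11934717 to 11975537, plus strand). All of its 16 tested sites lie in the last 1000 nt of the gene, and 8 of them fell. The largest fall was at 11975235, from 93.7% and 95.2% in control to 60.6% and 58.4% with ascorbic acid, on 335 to 413 reads (edgeR adjusted p = 3.74e-17). Nearly all reads carried the mark there in control, and the groups lay far apart.

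The PLOD1 calls differed by control level, as they did over all tested sites. All 6 sites at 60% or more in control fell, by 11.7 to 35.0 points. Each had at least 200 reads in every library, and 74.4% of all such sites fell. Between 25 and 60%, the site at 11975262 fell and those at 11975023 and 11975490 did not pass. At 11974832 the levels were 79.5% and 78.0% in control against 52.0% and 53.2% after treatment. At 11975176 they were 90.0% and 89.7% against 64.8% and 60.3%, and at 11975301 97.5% and 97.8% against 83.0% and 88.6%. Of the 7 sites under 25% 1 fell, at 11974985, and its adjusted p of 0.0482 by edgeR is close to the threshold. Over all tested sites under 25%, 6.78% fell. Both treated libraries lay below both controls at 4 of the 7, and at 35.0% of all sites under 25%. The site at 11974875, on 501 to 622 reads and close to the site at 11974832 that fell, had 18.2% in both control libraries and 17.2% and 18.9% with ascorbic acid (edgeR adjusted p = 0.975). The groups of this low site overlap, while the high site beside it fell at a similar depth.

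PLOD2 lies on chromosome 3 (146069440 to 146161184, minus strand) and moved least in log2 odds among the 10 genes, with none of its 7 tested sites passing by edgeR, DESeq2 or limma and 1 at an unadjusted p of 0.05 by edgeR. Over these sites its levels were 43.1% and 43.5% in control against 38.9% and 38.0% after treatment, which gives -0.30 in log2 odds (SE 0.12, edgeR adjusted p = 0.0432). This gene call is not stable. It was lost in 7 of 11 alternatives, among them DESeq2 (adjusted p = 0.243), limma (0.0515), a replicate block (0.0501) and edgeR without any 1 library (0.0661 to 0.251). The tested sites lie in a cluster between 1133 and 1352 nt from the 3' end.

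The 3 PLOD2 sites above 60% in control differed among themselves, and none passed. The site at 146070573 had 90.0% and 87.1% in control against 88.7% and 87.8% after treatment. The site at 146070673 had 74.6% and 71.4% against 62.8% and 67.2%, so its groups did not overlap, with a change of -7.98 points (edgeR adjusted p = 0.180). The site at 146070771 had 87.9% and 95.7% against 89.7% and 80.1%, with overlap (edgeR adjusted p = 0.109, and 0.0499 without control 1). Depth was lower here, at 31 to 189 reads, than at the high PLOD1 sites, at 229 to 849 reads. Over all tested sites above 60% with fewer than 120 reads in the least covered library, 38.9% fell.

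The difference between PLOD1 and PLOD2 was set up after their values were seen. In the control libraries PLOD1 stood 6.69 and 6.68 points above PLOD2, and with ascorbic acid 0.249 and 0.257 points. The libraries of a group lay far closer to each other than the groups did, and an exact two-sided permutation test of it gave p = 0.33, again the smallest possible. PLOD2 rests on 554 to 1025 summed reads per library, so replicates this close do not measure the counting error. In log2 odds the difference between the genes changed by -0.37, and no error was computed for it. The 95% intervals of the gene changes just overlap, at -0.800 to -0.529 for PLOD1 and -0.534 to -0.057 for PLOD2.

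PLOD3 lies on chromosome 7 (101205984 to 101217581, minus strand) and had 1 tested site of 8 listed. At 101206153, which lies 169 nt from the 3' end, the level was 25.6% and 26.1% in control against 12.0% and 12.7% after treatment, on 593 to 875 reads. Both treated libraries were well below both controls, and the change was -1.31 in log2 odds (SE 0.14, edgeR adjusted p = 1.30e-07 for the gene).

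**Figure D3:**
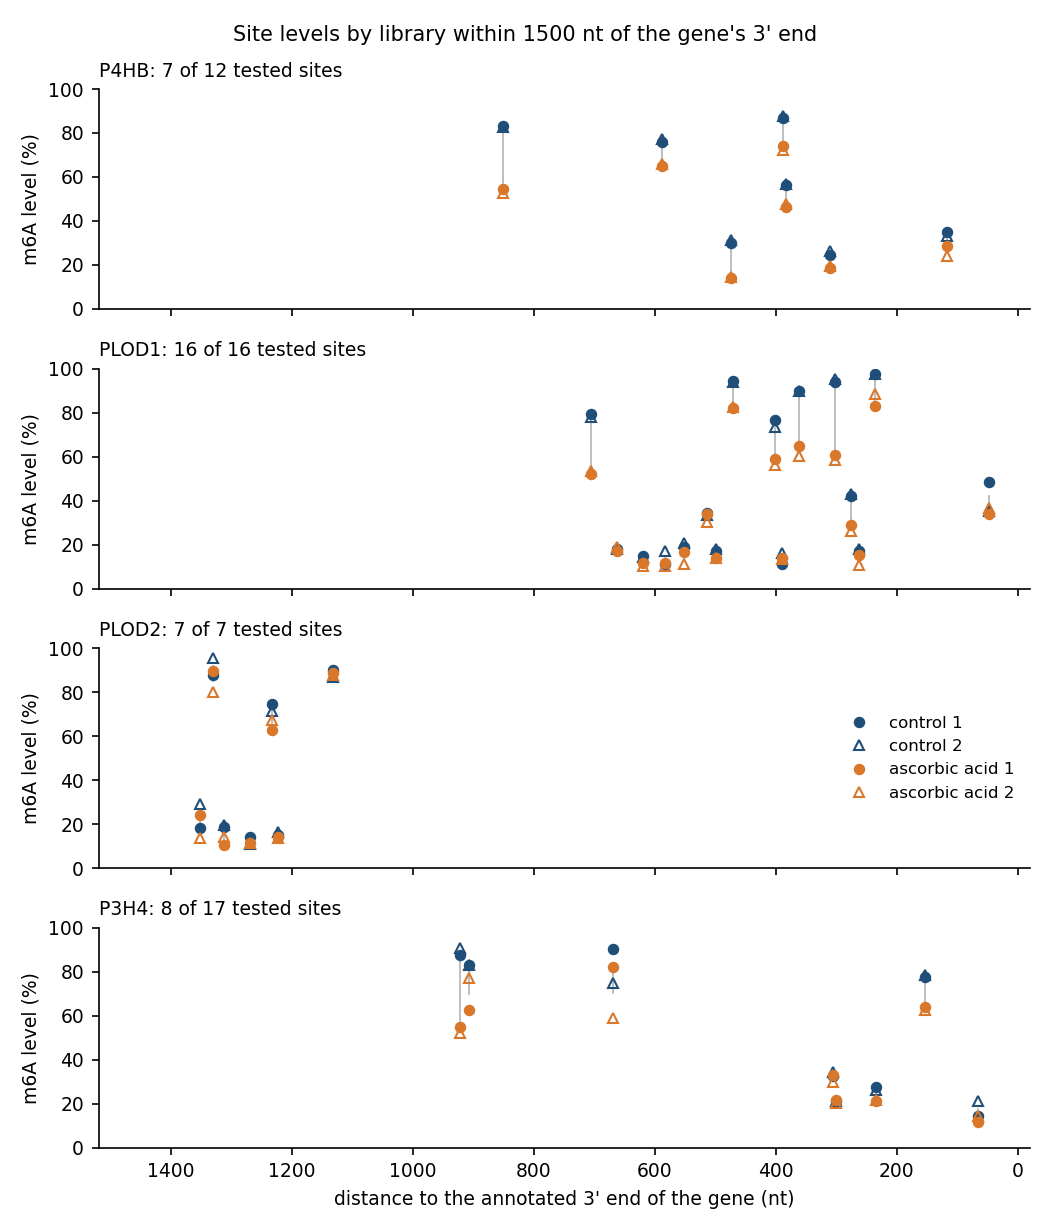
m6A level in percent of each tested site within 1500 nt of the annotated 3' end for P4HB, PLOD1, PLOD2 and P3H4, one symbol per library, with a line joining the group means and distance in nt on the horizontal axis. In PLOD1 the 6 sites above 60% drop. At the 7 sites under 25% the groups lie closer together in points, with both treated libraries below both controls at 4. In PLOD2 the treated mean is the lower one at all 7 sites but none passed. In P3H4 the symbols at 300 and 305 nt from the end lie close together, while the site at 234 nt fell.

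P3H1, the prolyl 3-hydroxylase, works in a complex with CRTAP, which has no catalytic activity, and with the proline isomerase PPIB. P3H1 lies on chromosome 1 (42746374 to 42767028, minus strand), and 3 of its 5 tested sites fell. The largest fall, at 42746651, went from 82.6% and 84.2% in control to 49.9% and 56.0% with ascorbic acid, on 374 to 467 reads (edgeR adjusted p = 6.48e-14). At 42746529 the levels were 64.3% and 68.4% against 44.4% and 38.6%. Between them, at 42746574, they were 21.6% and 20.8% against 24.4% and 19.1%, where the groups overlap (edgeR adjusted p = 0.906). The tested site near the other end of the gene, at 42766823, had 37.1% and 42.1% against 31.9% and 37.1% and did not pass. Over its sites P3H1 fell from 49.7% ± 2.07 to 34.7% ± 1.01 (SD, n = 2), by 15.0 points (edgeR adjusted p = 7.38e-08), the largest difference in points of the 10 genes, with P4HA2 at -14.8 beside it.

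CRTAP lies on chromosome 3 (33114014 to 33147773, plus strand) and had the smallest difference in points, from 21.3% in both control libraries to 17.6% and 16.5% with ascorbic acid (-0.40 in log2 odds, SE 0.087, edgeR adjusted p = 0.000585). With limma on log2 odds CRTAP did not pass (adjusted p = 0.0572). Most of its reads come from the site at 33142876, on 1941 to 2859 reads, which had 22.0% and 21.0% in control against 18.2% and 17.5% after treatment (edgeR adjusted p = 0.0107). A site 150 nt from the gene start, at 33114164, had 17.8% and 18.8% against 13.9% and 11.0% (edgeR adjusted p = 0.00461), and lost its call without ascorbic acid 2 (0.217), with DESeq2 (0.0928) and with limma (0.110). The largest difference lay at a shallow site, 33147047, with 34.6% and 46.9% against 21.7% and 24.1% on 23 to 32 reads. Its groups did not overlap, with a change of -17.8 points, but it did not pass (edgeR adjusted p = 0.118).

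P3H4 resembles the prolyl 3-hydroxylases in sequence but lacks their activity and assists lysyl hydroxylation. It lies on chromosome 17 (41801953 to 41811949, minus strand) and had the most tested sites, of which 8 of 17 fell and 9 did not pass. The largest fall among the sites of all 10 genes, at 41802875, went from 87.7% and 90.8% to 54.8% and 52.2%, on 65 to 90 reads (edgeR adjusted p = 1.07e-07). The site with the smallest p, at 41802106, went from 77.9% and 78.7% to 64.0% and 62.6% on 737 to 992 reads (edgeR adjusted p = 6.09e-09).

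P3H4 had falls both near and far from its 3' end, with sites close by that did not pass. Far from the 3' end, at 41811821, the levels were 48.3% and 51.4% in control against 29.3% and 32.6% after treatment, and at 41807944 27.8% and 30.1% against 12.3% and 14.0%. At 41811154, by contrast, they were 57.4% and 61.2% against 54.7% and 56.1%, which did not pass. At 41802253 they were 21.2% and 21.4% against 22.0% and 20.6% on 314 to 359 reads (edgeR adjusted p = 0.990), and the site 5 nt away, at 41802258, had 32.7% and 34.6% against 33.2% and 30.1%. The gene as a whole went from 41.7% and 44.4% to 34.7% and 33.9% (-0.54 in log2 odds, SE 0.076, edgeR adjusted p = 5.12e-06).

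COLGALT1 encodes the galactosyltransferase that adds galactose to hydroxylysine, so it acts on the product of the lysyl hydroxylases. It lies on chromosome 19 (17555649 to 17583157, plus strand), and 4 of its 7 tested sites fell. At 17581507 the levels were 79.4% and 82.7% in control against 58.1% and 53.7% after treatment (edgeR adjusted p = 1.02e-13). At 17583025 they were 66.1% and 67.8% against 42.3% and 41.3% (edgeR adjusted p = 1.03e-13). The moderately methylated sites at 17582650 and 17582677 fell too, the first from 39.3% and 37.8% to 24.5% and 24.4% and the second from 32.2% and 35.6% to 18.3% and 17.6%. The site at 17581308 was the only tested one of the 10 genes where both ascorbic acid libraries lay above both controls, with 12.6% and 14.0% in control against 15.0% and 16.5% after treatment, and it did not pass (edgeR adjusted p = 0.446). Summed over its sites COLGALT1 changed by -0.85 in log2 odds (SE 0.077, edgeR adjusted p = 1.10e-08).

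Sites listed in only some libraries could not be tested, since an unlisted site has no level. Of the 151 sites 71 were listed in all 4 libraries (47.0%, against 38.4% of all listed sites), 13 in 3, 5 in 1 library of each group and 50 in 1 library. In P3H4, 2 of them lay outside the RefSeq span, upstream of the gene. In both control libraries and neither treated one 6 were listed (3.97%, against 3.04% of all), and in both treated libraries and neither control 6 as well (3.97%, against 2.75%). Of the 80 sites not listed everywhere, 64 never reached 25% in a library that listed them. The share over all such sites of the data was not determined here. In the control lists alone, the deepest were CRTAP 33142467, at 12.4% and 14.2% on 1310 and 1210 reads, and P3H4 41809756, at 11.7% and 13.8% on 480 and 458 reads.

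The sites listed in the treated libraries alone include a cluster in COLGALT1 that is far from the limit. At 17581419 the levels were 44.8% and 38.2% on 328 and 393 reads, and at 17581398 31.3% and 27.3% on 323 and 384 reads. At 17581438 they were 68.0% and 63.1% and at 17581392 52.7% and 52.3%, both named after their values were seen. Tested sites on either side were listed in control, 17581308 on 270 and 150 reads and 17581507 on 618 and 734 reads, so the control libraries had reads nearby. The 4 sites lie within 50 nt and share reads, and their control levels are unknown. Of these, 17581392 and 17581398 lie 6 nt apart. Among all sites with at least 200 reads and 25% in both treated libraries, 0.472% were listed in neither control library, and the reverse held for 0.225%. The cause of the missing control entries was not tested, and they are not counted as gains.

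The deposited coverage of each gene, scaled between libraries, served as a stand-in for the amount of RNA. It has no stated unit, and that it measures the amount of RNA is assumed. None of the 10 genes was called (limma on log2 scaled coverage, adjusted p from 0.0901 to 0.927, with 1 at an unadjusted p of 0.05). Over all 11848 genes 0.253% rose and 0.0422% fell. PLOD3 came nearest, with scaled coverage of 230 and 231 in control against 286 and 284 after treatment. Its log2 difference was 0.31 ± 0.054 (SE), with replicates close together (limma adjusted p = 0.0901, and 0.0465 without control 1). PLOD2 had 107 and 103 against 109 and 122, and P3H1 238 and 207 against 246 and 240, so 3 of the 10 genes had both treated libraries above both controls, where 23.2% of all genes did. P4HB, at 1495 and 1509 against 1434 and 1375, and P3H4, at 179 and 171 against 162 and 165, were lower in both treated libraries without passing (limma adjusted p = 0.525 and 0.481). In bulk libraries fewer transcripts per cell and fewer cells with the transcript cannot be told apart. The median difference of the 10 genes was 0.05 in log2, and no called change of coverage stood beside the falls in m6A level.

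**Figure D4:**
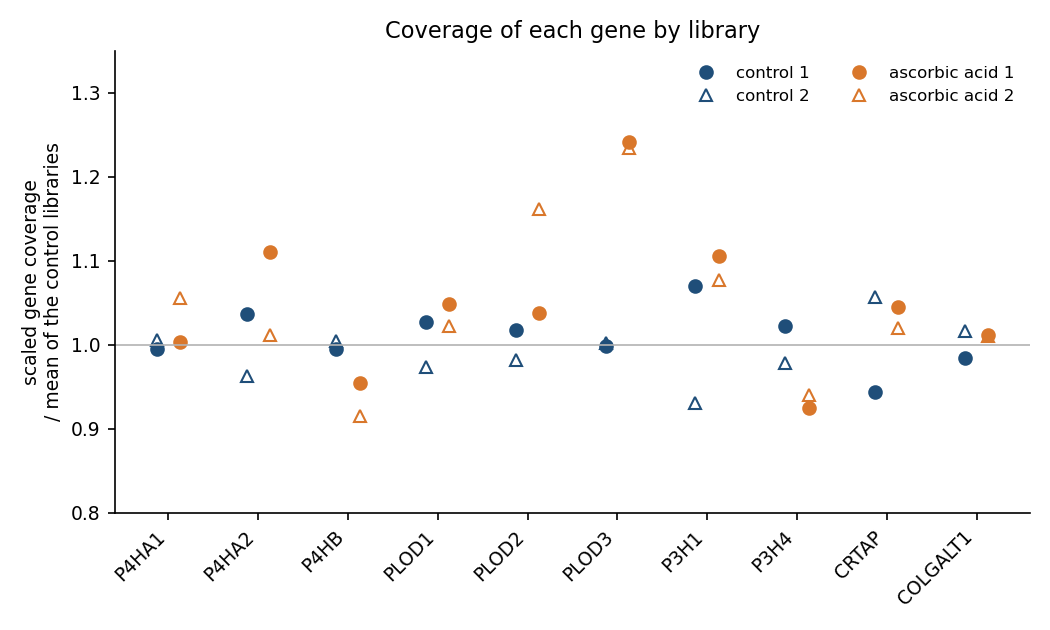
Scaled coverage of each gene in each library divided by the mean of its 2 control libraries, with the line at 1 marking that mean and the vertical axis starting at 0.8. PLOD3 has both treated libraries clearly above 1 with its controls close together, and in the other 9 genes the treated libraries lie nearer to the spread of the controls.

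The order of the genes by mean scaled coverage, a value per gene that no source used here defines, had P4HB first at 1454, then COLGALT1 at 705 and CRTAP at 600 (599.7). PLOD3, PLOD1 and P3H1 followed with ranges that overlap between neighbours, then P3H4, then PLOD2 and P4HA1, which overlap, and P4HA2 last. The subunits of prolyl 4-hydroxylase thus stood at both ends of the order.

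Other genes of collagen synthesis, on a list of 39 chaperones, isomerases, export factors, crosslinking enzymes and further hydroxylases, fell at a share not far from that of all genes. Of the 28 with a tested site 18 fell, where 56.8% of all genes did, none rose and 10 did not pass by edgeR, with 18 at an unadjusted p of 0.05 and a median of -0.49 in log2 odds. By DESeq2 and limma none rose either, and 1 rose by edgeR without control 2. P3H3 and COLGALT2, relatives of P3H1 and COLGALT1, both passed. P3H3 went from 33.3% and 32.1% to 24.2% and 25.5% (edgeR adjusted p = 0.0013) and COLGALT2 from 43.6% and 45.6% to 33.0% and 33.6% (0.0405). P4HA3, P3H2, ADAMTS2 and ADAMTS14 were not in any list.

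The 4 genes of the list with the smallest p were FKBP10, MIA3, HSP90B1 and PPIB. FKBP10, a collagen chaperone and proline isomerase that supports lysyl hydroxylation of telopeptides, went from 39.7% and 41.4% to 26.1% and 26.8% (edgeR adjusted p = 1.58e-09). MIA3, which loads collagen into transport carriers, went from 48.4% and 45.8% to 31.3% and 27.7% (edgeR adjusted p = 2.08e-07). HSP90B1, a general chaperone of the endoplasmic reticulum, went from 21.0% and 20.5% to 12.3% and 12.2% (edgeR adjusted p = 3.72e-07). PPIB, the partner of P3H1 and CRTAP, went from 56.1% and 53.7% to 45.8% and 44.8% (edgeR adjusted p = 1.14e-06). The count was lowest without ascorbic acid 1 or without ascorbic acid 2, and fewer of all genes fell in these settings too. With DESeq2 it was 11 of 28, where 3919 of all 10782 genes fell instead of 6119 by edgeR. In coverage 1 of 31 rose, where 0.253% of all genes did. It was SPARC, a collagen-binding protein of the matrix, from 147 in both control libraries to 234 and 225 (log2 difference 0.64 ± 0.056, limma adjusted p = 0.0175). The SPARC call was lost without ascorbic acid 1, a setting in which fewer of all genes were called too. Without scaling 2 of the 31 rose, where 111 of all 11848 genes did. More of the 31 rose without control 1, as did more of all genes.

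Summed over all 71 sites the 10 genes had levels of 43.2% and 44.7% in control against 33.8% and 33.0% after treatment. Among 7229 other genes with at least 3 tested sites, the 3 with the nearest levels in all 4 libraries were TFCP2, NUS1P1 and CIC, by a largest difference of 0.624, 0.629 and 0.758 points. NUS1P1 is a pseudogene and can share reads with its parent gene. In all, 61 of the 7229 genes lay within 2 points and 8 within 1 point.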

How the data were processed

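The data are 4 lists of GLORI sites, 1 per library. Per the submitters' processing notes, Trimmomatic 0.39 and STAR were run on hg38 (GRCh38); no source used here names the site caller. A plus G and A reads are the authors' raw counts. The site level and the conversion rate are fractions as deposited by the authors. Gene coverage is a signal deposited by the authors with no stated unit. The deposited p-values, per the file headers the authors' test of each site, were not used. Sites on every list and on 20 reads or more were tested with edgeR 4.0.16 (quasi-likelihood, with 1 term for each library and 1 for how treatment shifts A against G), singly and summed per gene. Gene coverage was scaled to the genes' geometric means by median ratios, and its log2 values were tested with limma 3.58.1 (eBayes with trend). All tests are two-sided, and p-values were adjusted by Benjamini-Hochberg over all features, with a threshold of 0.05. Errors and read depths cover counting and replicate spread only, and reads are not known to be independent molecules.

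The genes, lists and tests were chosen with earlier results of these data known. Named sites are each gene's smallest p, largest fall and largest rise, the 2 deepest sites listed in 1 group alone, the 4 pathway genes with the smallest p and the 3 genes most alike, and further sites were named after their values were seen. Alternatives were DESeq2 1.42.0, limma on log2 odds (0.5 added to each read count), read minimums, scalings, a pseudocount, a replicate block and leaving out each library. The tests were tried on simulated data. R 4.3.3 and Python 3.11.15 were used.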

Additional observations from a re-analysis of the deposited data

How the results depend on the processing

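All 10 genes kept a negative change in log2 odds in each of the 110 alternatives of the gene test, 101 of which left the call as it was. At the sites, 36 falls became 23 with limma on log2 odds and 29 with DESeq2, 37 with a replicate block, and between 29 and 35 when 1 library was left out; none rose in any of these. The 9 genes that fell became 7 with limma and 8 with DESeq2. Leaving out 1 library changed which genes passed: PLOD2 lost its call each time, and P4HA1 passed without control 2. Of the other genes of collagen synthesis 18 fell, 11 with DESeq2 and between 10 and 17 when 1 library was left out. The coverage test called 0 genes, and between 0 and 1 when 1 library was left out (PLOD3 without control 1). The library median over sites moved by -7.63 points instead of -8.52 when corrected for the unconverted share. The -7.04 points of all tested sites were not corrected in this way, so the corrected value has no like counterpart. Values that changed sign when 1 library was left out belong to results that did not pass: the coverage of CRTAP (-0.034 without control 1, up to 0.13) and COLGALT1 (-0.0070 without control 1, up to 0.043), the P3H1 site 42746574 (-0.19 without ascorbic acid 1 and -0.00019 without control 2, up to 0.26) and the P4HB site 81846614 (-0.13 without ascorbic acid 1, up to 0.65), all in log2. The cause was not tested.

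Over all sites 20188 falls became 9717 with DESeq2, 10187 with limma and 12422 without ascorbic acid 2, and 6119 genes became 3919 with DESeq2. The 35 coverage calls became 121 without scaling, 92 with a replicate block, and between 5 (without ascorbic acid 1) and 358 (without control 1). Deviations of replicates with the same number were not correlated over sites (-0.0053 with 2 pairs). This cannot tell whether the numbers pair the samples, because site levels of replicates differed by little more than counting. The squared difference was on average 1.16 times that of counting in control and 1.03 times with ascorbic acid. With the number as a replicate block in edgeR 37 sites and 8 of the 10 genes fell (PLOD2 lost, adjusted p = 0.0501). In that setting 18 of the other genes fell and 0 coverage calls were made among the 10. DESeq2 size factors in edgeR gave the same counts. The PLOD2 sites had 31 to 200 reads and the CRTAP sites near its 3' end 22 to 39, and whether depth accounts for missing calls was not tested.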

Other observations

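Some listed sites carry no gene name but lie on the same strand inside the spans of these genes. There were 30, with 10 in P3H4, 9 in P3H1, 8 in P4HB and 3 in COLGALT1, and 9 of them could be tested. None of the 9 passed by edgeR, DESeq2 or limma, and 0 had an unadjusted p under 0.05 in any of them. They had 20 to 96 reads per library. Of sites with fewer than 100 reads in every library 2 of 8 with the name of one of these genes fell, and 16.6% of all tested sites did. In the span of P3H1 the site at 42765662 had 81.8% and 80.0% in the control libraries and 84.8% and 81.4% in the treated ones, on 35 to 46 reads. Which transcript these sites belong to was not determined here.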
